A study of Mus musculus with 3 samples.

Results

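The genes of the mouse major histocompatibility complex and of antigen presentation were followed through whole dorsal skin. All rows whose symbol starts with H2-, and Cd74, Ciita, B2m, Tap1, Tap2, Tapbp, Nlrc5, Cd80 and Cd86, were taken as members, which gave 47 of 33696 genes, 38 of them H2- symbols. The skin came from 9-week-old female C57BL/6 mice whose back had been depilated with wax, and only depilated skin was taken. Droplet libraries of transcript 3′ ends (Chromium GEM-X, chemistry version 4) were made from pooled mice after digestion with 0.7 mg/mL collagenase D and a Percoll gradient. In the CIA+VFX library the mice carried the chemotherapy-induced alopecia model and were treated with VFX (venlafaxine), in the CIA library they carried the model, and in the Cont library they received vehicle. The labels name neither the chemotherapy agent nor a dose or day. Each group was 1 library of pooled mice, so no difference below has a replicate check, no p-value is given, and condition and library cannot be told apart. Intervals are exact 95% Poisson or binomial intervals and cover counting error only.

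Class I molecules consist of a heavy chain and beta-2-microglobulin, hold peptides from the cytosol, and show them to CD8 T cells, while natural killer cells respond to their loss. Class II molecules are dimers of an alpha and a beta chain that show peptides from endosomes to CD4 T cells, and in the skin they are made mainly by dendritic cells, Langerhans cells, macrophages and monocytes. Nlrc5 and Ciita are the transactivators of the class I and class II promoters, and interferon gamma raises both. The lower part of the growing hair follicle is a textbook site of immune privilege, known for low class I on the matrix and inner root sheath.

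Promoter windows of members are shown so that the letters of the main class I and class II genes can be compared, and nothing about the differences between libraries is drawn from them. RefSeq promoter windows of 300 bases (250 before to 50 after the start, build GRCm38.p6) were matched for 34 of the 47 members, with 37 windows in all. Capitals mark every match on either strand to TTTCNNTT (the core of the interferon-stimulated response element), GGGNNTCCC (a kappaB motif), GATTGG (the Y box), TGACG (part of the cyclic AMP response element) and AGCAAC (an X box core). Matches to different motifs did not overlap. The 7 windows are those of the main class I heavy chains and light chain, of H2-Q7 and H2-Q10, and of a class II alpha and beta chain.
H2-K1 chr17:34000298-34000597 minus strand: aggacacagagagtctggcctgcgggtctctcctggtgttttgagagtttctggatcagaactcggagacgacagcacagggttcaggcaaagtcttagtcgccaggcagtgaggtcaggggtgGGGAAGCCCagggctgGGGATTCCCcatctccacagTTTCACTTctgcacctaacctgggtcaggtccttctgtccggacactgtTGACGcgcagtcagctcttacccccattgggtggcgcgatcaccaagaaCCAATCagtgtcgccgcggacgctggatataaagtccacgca
H2-D1 chr17:35262844-35263143 plus strand: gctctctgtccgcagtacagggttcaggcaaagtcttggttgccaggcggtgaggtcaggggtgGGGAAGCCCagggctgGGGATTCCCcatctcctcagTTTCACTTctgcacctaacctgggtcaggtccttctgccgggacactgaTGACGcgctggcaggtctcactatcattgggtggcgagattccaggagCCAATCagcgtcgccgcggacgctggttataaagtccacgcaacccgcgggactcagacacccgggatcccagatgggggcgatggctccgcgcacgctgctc
H2-Q7 chr17:35438905-35439204 plus strand: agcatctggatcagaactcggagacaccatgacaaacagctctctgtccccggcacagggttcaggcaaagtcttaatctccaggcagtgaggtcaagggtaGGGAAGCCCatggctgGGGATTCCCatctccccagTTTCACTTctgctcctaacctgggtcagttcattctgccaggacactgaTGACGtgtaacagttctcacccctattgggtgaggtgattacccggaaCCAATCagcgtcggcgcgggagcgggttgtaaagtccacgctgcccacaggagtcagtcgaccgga
B2m chr2:122147437-122147736 plus strand: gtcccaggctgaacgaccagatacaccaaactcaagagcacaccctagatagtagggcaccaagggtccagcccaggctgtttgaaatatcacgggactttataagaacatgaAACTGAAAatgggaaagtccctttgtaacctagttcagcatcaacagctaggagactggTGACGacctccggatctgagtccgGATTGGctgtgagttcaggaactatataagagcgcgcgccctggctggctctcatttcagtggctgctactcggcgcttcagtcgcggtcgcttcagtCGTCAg
H2-Q10 chr17:35469839-35470138 plus strand: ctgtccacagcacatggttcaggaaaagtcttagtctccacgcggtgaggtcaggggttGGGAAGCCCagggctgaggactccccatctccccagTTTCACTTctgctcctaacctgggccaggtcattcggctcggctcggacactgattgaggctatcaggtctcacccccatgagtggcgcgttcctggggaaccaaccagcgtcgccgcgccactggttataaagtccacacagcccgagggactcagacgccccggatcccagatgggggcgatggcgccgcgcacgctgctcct
H2-Aa chr17:34287774-34288073 minus strand: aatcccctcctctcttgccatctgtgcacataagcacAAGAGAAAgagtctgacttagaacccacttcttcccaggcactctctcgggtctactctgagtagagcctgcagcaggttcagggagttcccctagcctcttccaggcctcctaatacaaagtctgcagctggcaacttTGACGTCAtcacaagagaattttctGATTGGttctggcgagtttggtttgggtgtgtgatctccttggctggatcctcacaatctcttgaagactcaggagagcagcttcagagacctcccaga
H2-Eb1 chr17:34305617-34305916 plus strand: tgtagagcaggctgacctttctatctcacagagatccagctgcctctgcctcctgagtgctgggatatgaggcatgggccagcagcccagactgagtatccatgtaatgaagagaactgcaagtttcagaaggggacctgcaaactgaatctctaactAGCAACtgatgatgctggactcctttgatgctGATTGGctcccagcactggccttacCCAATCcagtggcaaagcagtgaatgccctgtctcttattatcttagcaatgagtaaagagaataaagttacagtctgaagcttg

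The H2-K1, H2-D1 and H2-Q7 windows carried the same order of matches: kappaB letters, the interferon-stimulated core, a TGACG and a Y box. Only 53 of 32851 mouse promoter windows (0.161%) held the kappaB, interferon core and Y box letters together, and those 53 belonged to 52 genes that included H2-K1, H2-D1, H2-Q6 and H2-Q7. The Y box letters stood in 17 of 23 class I windows and 7 of 8 class II windows, against 16.1% of all windows. TTTCNNTT stood in 15 of 23 class I and 3 of 8 class II windows, against 23.9% of all. GGGNNTCCC was matched in 5 of 23 class I windows and 0 of 8 class II windows, against 5.66% of all. TGACG was matched in 12 of 23 and 1 of 8 windows, against 20.8% of all, and AGCAAC in 2 of 23 and 4 of 8, against 14.8% of all. H2-Q10, a soluble class I heavy chain known from mouse liver, shared the interferon core and 1 kappaB match with its neighbours, and its window held no GATTGG. B2m lies on another chromosome than the H2 genes and its window held the interferon core, a Y box and TGACG letters. Where a window was matched, the class I group took in heavy chains, B2m and Nlrc5. The class II group likewise took in chains, peptide exchange genes, Cd74 and Ciita. The heavy chain windows are those of paralogs, and H2-D1 and H2-K1 were identical at 73.3% of 240 bases compared without gaps. Their matches are therefore not independent of each other.

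The libraries held 18987 barcodes for CIA+VFX, 17675 for CIA and 14529 for Cont, with 155210692, 130557879 and 143164803 unique molecular identifiers (UMIs, counted molecules) in that order and medians of 4923, 4977 and 5950 UMIs a barcode. After filters and removal of called doublets 15372 CIA+VFX, 15401 CIA and 11904 Cont cells remained, of which 12574, 12682 and 9424 were given a cell type by their own markers and 1374, 1434 and 1268 had none. A cell took a type when its marker sum led the next type by a set margin with at least 3 markers detected, and 2496 CIA+VFX, 2269 CIA and 2014 Cont cells lay near that limit. The upper follicle cells lay in clusters led by other names, mainly cluster 17 (Fcgbp, Ifi202b, Defb1) and cluster 27 (Flg, Sprr2d, Krt1), so this type is a range of cells between infundibular, sebaceous and suprabasal programs. Cluster 58, the only cluster led by companion layer cells, held 27.8% of them in CIA+VFX, 38.4% in CIA and 6.25% in Cont. Between 75 and 110 barcodes were shared by each pair of libraries and 2 by all. Depth differed between libraries in some types: the median basal cell held 5808 UMIs in CIA+VFX, 5548 in CIA and 8613 in Cont.

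Levels are given as UMIs of a gene per 1000000 UMIs of all cells of that type in that library (CPM). A member was called measured in a type with at least 50 UMIs over the libraries compared, and 33 of the 47 were measured in at least 1 type. Counts of genes that share sequence with near-identical copies (H2-Q6 with H2-Q7, H2-T10 with H2-T22, H2-DMb1 with H2-DMb2, and the class I heavy chains) are uncertain to the extent that reads could be split or lost. The class I sum is H2-K1, H2-D1 and B2m, and the class II sum is H2-Aa, H2-Ab1, H2-Eb1 and Cd74.

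Class I transcripts were found in every type, at low levels in the follicle core and muscle and at high levels in most blood-derived and endothelial cells. Hair matrix and shaft cells had a class I sum of 321 CPM in CIA+VFX, 361 CPM in CIA and 399 CPM in Cont. Inner root sheath cells had 427 CPM in CIA+VFX, 424 CPM in CIA and 324 CPM in Cont. These follicle core types held the lowest sums of the keratinocytes in each library, and their order between themselves differed by library: matrix and shaft cells were below inner root sheath cells in CIA+VFX and CIA and above them in Cont. Companion layer cells had 819 CPM in CIA+VFX, 1109 CPM in CIA and 436 CPM in Cont. Basal, bulge and outer root sheath keratinocytes had 1096 CPM in CIA+VFX, 1359 CPM in CIA and 750 CPM in Cont, and cycling keratinocytes 993, 1311 and 584 CPM in the same order of libraries. The superficial types were higher. Suprabasal cells had 1676 CPM in CIA+VFX, 1900 CPM in CIA and 2867 CPM in Cont, and sebocytes 1806, 2127 and 2583 CPM in that order. Upper follicle cells had 2549 CPM in CIA+VFX, 2684 CPM in CIA and 3559 CPM in Cont, the highest class I sum of any keratinocyte type in each library.

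Outside the epithelium, dermal papilla cells were low, at 838 CPM in CIA+VFX, 1055 CPM in CIA and 1087 CPM in Cont. Fibroblasts had 1915 CPM in CIA+VFX, 2353 CPM in CIA and 3176 CPM in Cont. Vascular endothelial cells reached 5147 CPM in CIA+VFX, 5788 CPM in CIA and 5164 CPM in Cont, close to macrophages, which had 5447, 6490 and 7036 CPM in that order. Natural killer cells had 6572 CPM in CIA+VFX, 7864 CPM in CIA and 7677 CPM in Cont, and mature dendritic cells 6612, 5936 and 8562 CPM. All the types here come from the same libraries, so the order of types is described within each library and was not tested.

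**Figure D1:**
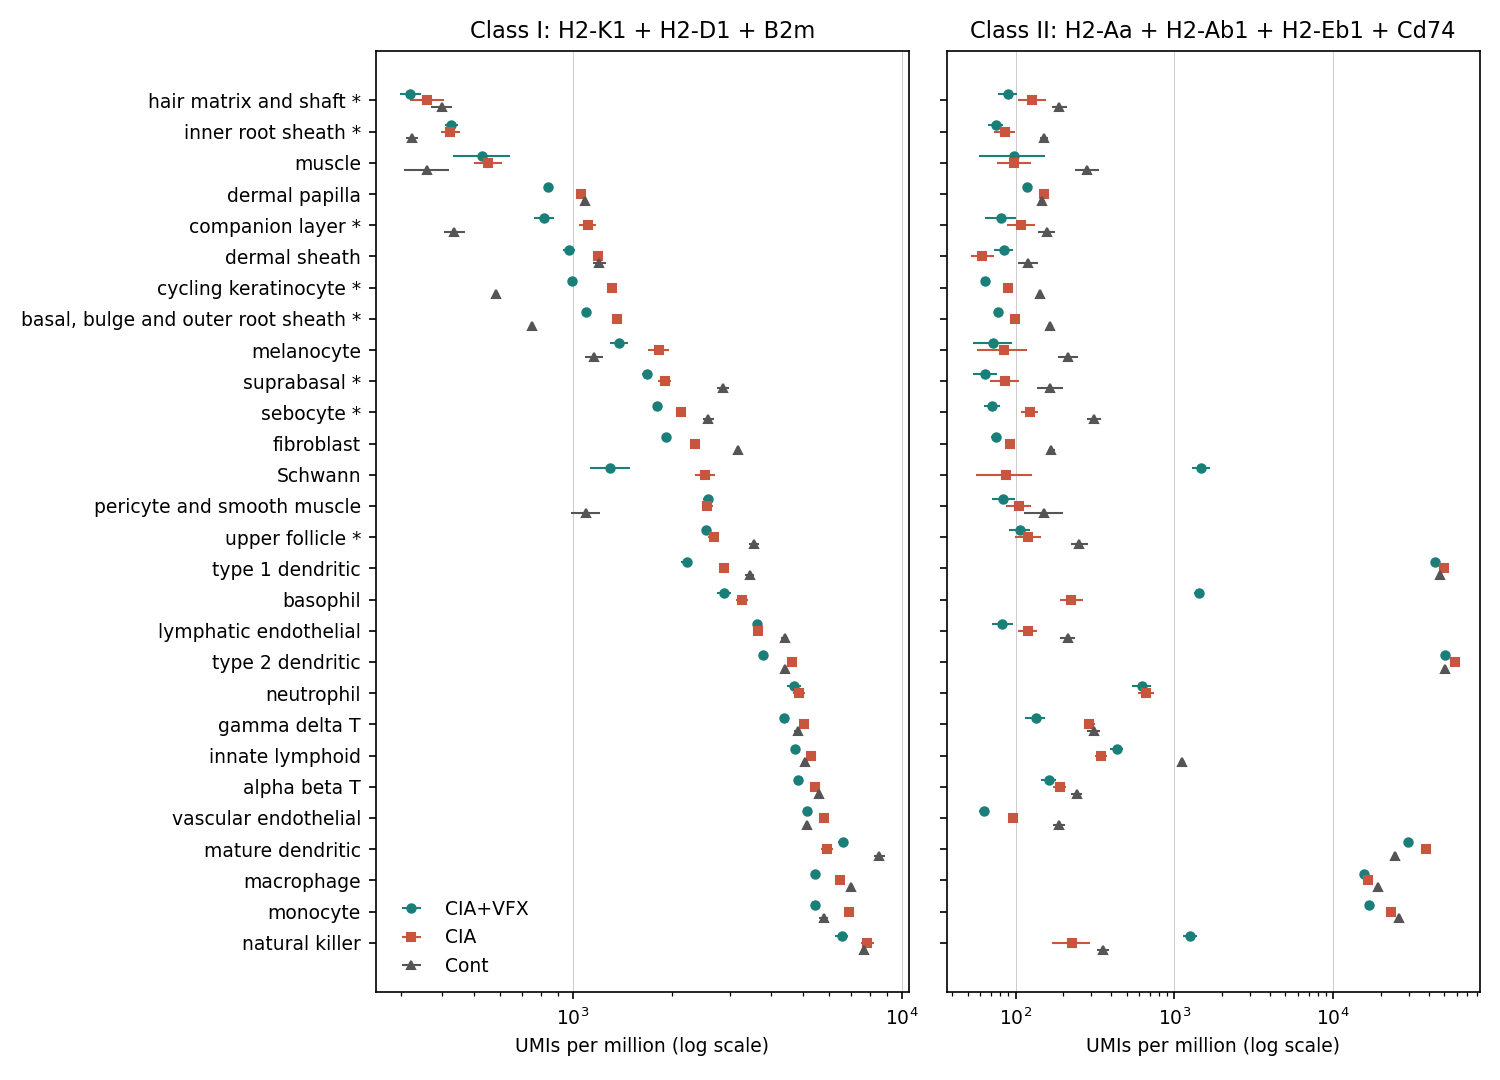
Class I sum (H2-K1, H2-D1, B2m) and class II sum (H2-Aa, H2-Ab1, H2-Eb1, Cd74) in CPM on log axes for each cell type, with 1 point a library in the order CIA+VFX, CIA, Cont and bars for exact 95% Poisson intervals; * marks keratinocytes. Class I runs from matrix and inner root sheath cells at 321 to 427 CPM up to natural killer and mature dendritic cells, all at 5936 CPM or more. Class II separates dendritic cells, macrophages and monocytes from the other types shown. Among types not shown, the class II sum was 55581 CPM in CIA+VFX and 58153 CPM in CIA Langerhans cells. It was 9971 CPM in Cont B and plasma cells.

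The gradient within the follicle was seen for each class I component. B2m, the light chain, stood at 106 CPM in CIA+VFX, 84.4 CPM in CIA and 70.7 CPM in Cont inner root sheath cells. In upper follicle cells B2m stood at 1387 CPM in CIA+VFX, 1498 CPM in CIA and 1968 CPM in Cont. H2-K1, a classical heavy chain, had 138, 130 and 108 CPM in inner root sheath cells against 520, 514 and 829 CPM in upper follicle cells, in the order CIA+VFX, CIA and Cont. H2-D1, the other classical heavy chain, had 182, 210 and 146 CPM in inner root sheath cells against 641, 673 and 761 CPM in upper follicle cells of those libraries. For each of these genes the upper follicle value was above the inner root sheath value in each library. The follicle core was not at 0. Free RNA was given the make-up of the whole library and scaled to account for all class II UMIs of inner root sheath cells. At 2.55% of UMIs in CIA+VFX, 1.52% in CIA and 2.91% in Cont, it would supply 26.1, 21.4 and 30.2 CPM of B2m. These stand beside the 106, 84.4 and 70.7 CPM of inner root sheath cells, an uneven share over the libraries. No such value is given for matrix and shaft cells, and the part of free RNA in the follicle core was not tested.

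Each cell with at least 2000 UMIs was thinned to 2000 UMIs, and cells with fewer were left out of thinned but not of unthinned shares. After thinning, a B2m UMI was found in 21.2% of CIA+VFX, 12.4% of CIA and 11% of Cont inner root sheath cells (76 of 358, 22 of 178 and 47 of 426 cells). The same share was 45.4%, 48.5% and 38.1% in basal, bulge and outer root sheath cells, and 80.8%, 70.2% and 81.7% in upper follicle cells. Unthinned, the B2m share was 55.0%, 45.3% and 52.6% in inner root sheath cells and 81.0%, 69.4% and 90% in upper follicle cells, with median depths of 9368, 8714 and 13187 UMIs in the inner root sheath and 7570, 6875 and 8695 UMIs in the upper follicle. Nlrc5 showed the widest range: a UMI was found in 32.3% of CIA+VFX, 29.8% of CIA and 43.9% of Cont upper follicle cells after thinning, against 1.4%, 0.562% and 0.704% of inner root sheath cells. In matrix and shaft cells 2 of 209 CIA+VFX cells, 0 of 87 CIA cells and 0 of 137 Cont cells had an Nlrc5 UMI after thinning, and the upper bounds were 3.41%, 4.15% and 2.66%. Upper follicle cells had the highest Nlrc5 level of any type in each library, at 223 CPM in CIA+VFX, 179 CPM in CIA and 333 CPM in Cont.

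In basal, bulge and outer root sheath keratinocytes, class I genes were higher in CIA than in Cont. The class I sum had a log2 ratio of 0.86 (interval 0.83 to 0.89) in CIA against Cont, and 10 of 21 measured members were at least 1.5-fold higher in CIA, against 14.8% of all 13245 genes measured there. At least 1.5-fold lower were 3 of 21, against 3.68% of all. The median log2 ratio of the 21 members was 0.52 and that of all measured genes 0.16. B2m stood at 539 CPM in CIA+VFX, 649 CPM in CIA and 344 CPM in Cont, and H2-D1 at 305, 418 and 225 CPM. H2-K1 stood at 252 CPM in CIA+VFX, 292 CPM in CIA and 182 CPM in Cont. CIA was the highest and Cont the lowest library for each of the 3. The log2 ratio of CIA against Cont was 0.92 (0.87 to 0.96) for B2m, 0.90 (0.84 to 0.95) for H2-D1 and 0.68 (0.62 to 0.74) for H2-K1.

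The non-classical and loading genes followed the same order in these basal cells. H2-T23, which encodes Qa-1 and presents leader peptides to a receptor of natural killer cells, had 42.3 CPM in CIA+VFX, 55.8 CPM in CIA and 29.6 CPM in Cont. H2-Q4 had 67.6, 89.1 and 49.8 CPM in that order, and H2-Q5 had 1.99, 3.70 and 1.14 CPM from 44, 58 and 24 UMIs. Tap1 and Tap2, the subunits of the peptide transporter, had 25.6, 33.1 and 20.4 CPM and 27.3, 35.9 and 19.4 CPM. Tapbp, which holds empty class I molecules at the transporter, did not share the pattern, at 42.5 CPM in CIA+VFX, 36.1 CPM in CIA and 42.3 CPM in Cont. Nlrc5 had 50.4 CPM in CIA+VFX, 61.7 CPM in CIA and 30.9 CPM in Cont, and H2-Q7, a Qa-2 gene, had 23, 33.3 and 21.3 CPM. In the cells without UMIs of immune markers, the log2 ratios of CIA against Cont were -0.15 for Nlrc5 and -0.12 for H2-Q7, against 1.0 and 0.64 over all cells. The class I ratio in those cells was 0.44. The list behind that choice of cells held markers of macrophages, dendritic cells and Langerhans cells beside the pan-immune ones. Pan-immune markers alone summed to 27.3 CPM in CIA+VFX, 31.7 CPM in CIA and 37.4 CPM in Cont basal cells. The part of immune cell RNA in these class I values was not tested.

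**Figure D2:**
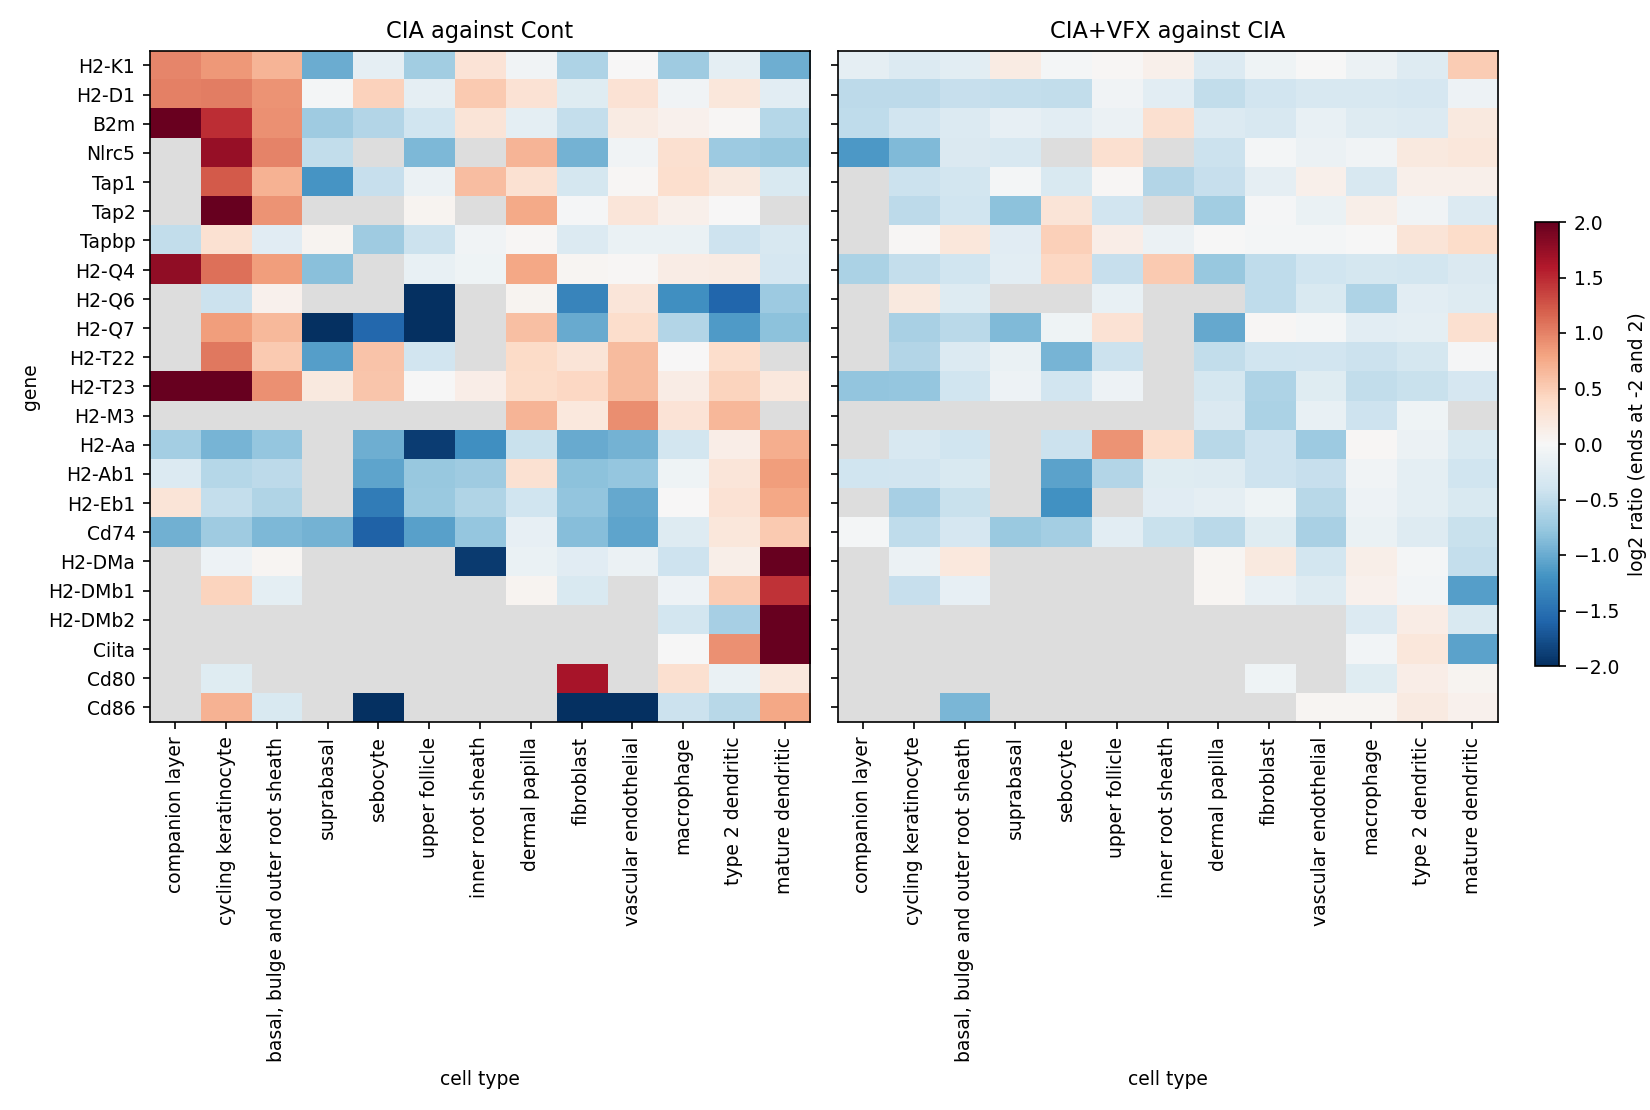
Heatmap of log2 ratios of CPM for 23 members (rows) in 13 cell types (columns), with CIA against Cont left and CIA+VFX against CIA right, colours ending at log2 values of -2 and 2; grey cells were not measured. Most class I rows are above 0 for CIA against Cont in basal, cycling and companion layer cells, and below 0 in upper follicle and suprabasal cells.

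The pooled keratinocyte difference was smaller when clusters were weighted alike. Over all keratinocytes the class I sum was 1077 CPM in CIA+VFX, 1364 CPM in CIA and 735 CPM in Cont, with a log2 ratio of CIA against Cont of 0.89 (0.87 to 0.91), and 11 of 25 members were at least 1.5-fold higher (13.2% of all genes) and 4 lower (4.93%). When each cluster was given the same weight in both libraries, a choice made after seeing the data, the ratio was 0.18, with CIA above Cont in 11 of 16 clusters. The weights were cell numbers, whereas pooling weights cells by their UMIs, and as a mean over cells the ratio was 0.59. The part of the mix of clusters in the fall to 0.18 was therefore not told apart from that of the weights. Among basal, bulge and outer root sheath cells the weighted ratio was 0.51, with CIA above Cont in 7 of 10 clusters. Clusters 4 (Gnmt, Kcnb2, Scrg1), 47 (Adamts19, Krtap17-1) and 28 (Pthlh, Sox9) were higher in CIA, with class I sums in basal cells of 1132, 1553 and 2065 CPM in CIA against 556, 861 and 1426 CPM in Cont. Over all keratinocytes, clusters 17, 19 (Akr1c18, Nrg4), 15 (Awat1), 27 and 38 were lower in CIA. The class I sum of cluster 17 was 2562 CPM in CIA against 3289 CPM in Cont, and that of cluster 27 was 2177 CPM against 3381 CPM.

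In cycling keratinocytes, gated by their cell cycle markers, the difference was not kept when clusters were weighted alike. The pooled class I log2 ratio of CIA against Cont was 1.17 (1.13 to 1.20), and weighted alike over 7 clusters it was -0.10, although CIA was higher in 5 of the 7. In clusters 0, 8 and 33, each with 88 or more cells in each library, the ratios were 0.46, 0.32 and 0.54. The 2 clusters where CIA was lower had few Cont cells: cluster 17, at 2652 CPM in CIA against 3970 CPM in Cont, had 118 CIA and 22 Cont cells, and cluster 19, at 1834 against 2794 CPM, had 54 CIA and 10 Cont cells. Cluster 0 (Cldn4, Krt28, Krt71), an inner root sheath program, held 36% of these cells in Cont and 14% in CIA+VFX and 13% in CIA, and cluster 17 held 7% in CIA+VFX, 18% in CIA and 3% in Cont. Pooled, 11 of 20 members were at least 1.5-fold higher in CIA (14.9% of all genes) and 2 lower (7.91%), the class II genes H2-Aa and Cd74. B2m had 452 CPM in CIA+VFX, 588 CPM in CIA and 212 CPM in Cont. Tap2 had 16.3, 23.5 and 5.46 CPM and H2-T23 had 28.2, 47.9 and 11.7 CPM in that order, the widest differences here, at log2 ratios of 2.11 (1.80 to 2.42) and 2.03 (1.82 to 2.24). With cells typed by their cluster the H2-T23 ratio was -0.03. In companion layer cells the pooled ratio was 1.34 (1.21 to 1.48), and in the 1 cluster with enough cells in both libraries, which held 19.7% of them, it was -0.63. Cluster 58 held 38.4% of CIA and 6.25% of Cont companion layer cells, so the pooled values compare unlike mixes of clusters. Members were at least 1.5-fold higher in 5 of 10 cases (15.5% of all genes) and lower in 2 (17.7%), the class II genes H2-Aa and Cd74. B2m there had 339 CPM in CIA+VFX, 481 CPM in CIA and 122 CPM in Cont.

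The inner root sheath had a smaller difference that was kept when clusters were weighted alike. Its class I log2 ratio of CIA against Cont was 0.39 (0.27 to 0.50), and 0.46 with clusters weighted alike, with CIA above Cont in 3 of 3 clusters. Members passed 1.5-fold upward in 1 of 12 cases (5.65% of all genes) and downward in 5 (9.93%). The 1 was Tap1, and the 5 were the class II genes H2-Aa, H2-Ab1, H2-Eb1, Cd74 and H2-DMa. In matrix and shaft cells 0 of 8 members were higher (7.35%) and 2 lower (7.05%), the class II genes H2-Aa and H2-Eb1. The class I ratio there was -0.15 (-0.35 to 0.06), an interval that includes 0. Over the alternatives that ratio ran from -0.41 to 0.99, the highest in cells without immune marker UMIs, so no direction is given for matrix and shaft cells.

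**Figure D3:**
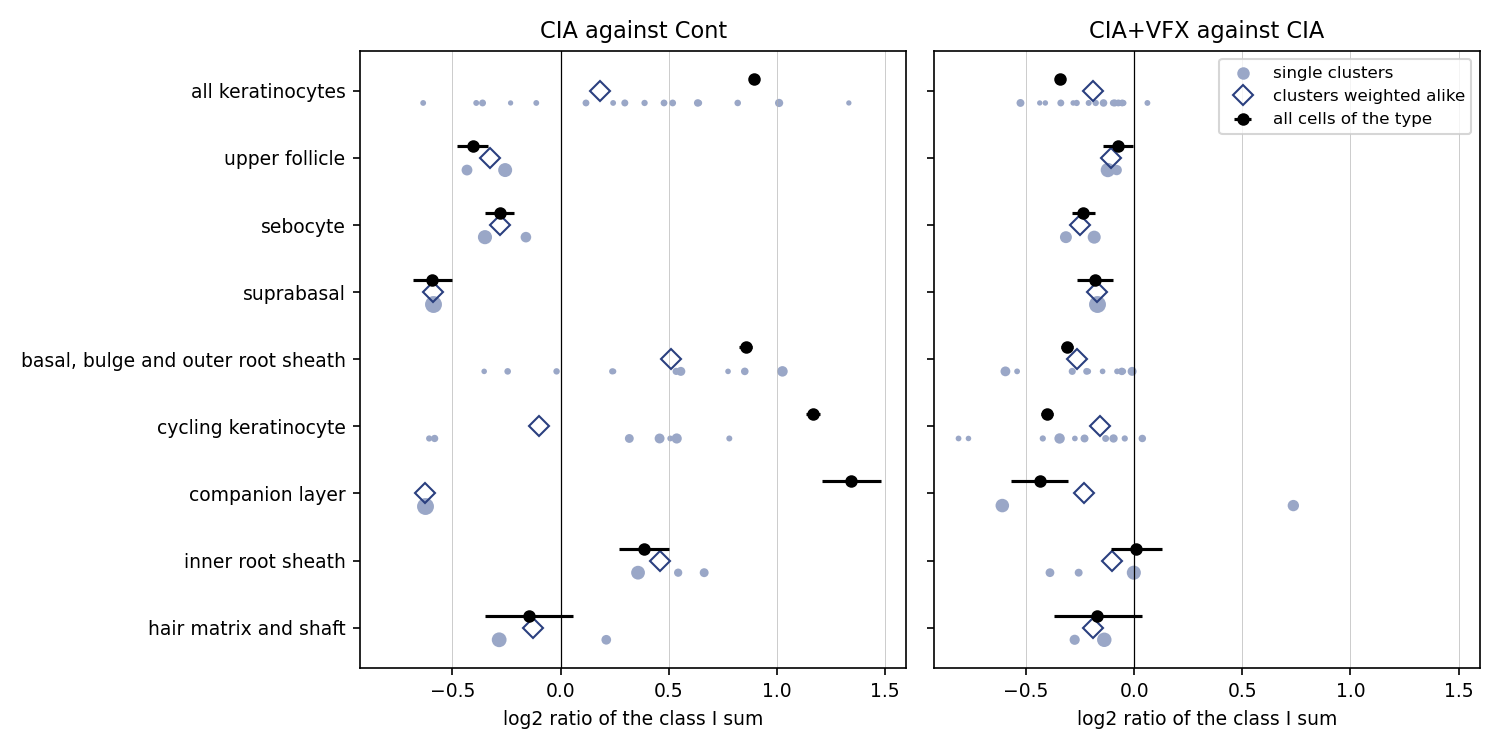
Log2 ratio of the class I sum for keratinocyte types, with CIA against Cont left and CIA+VFX against CIA right, pooled over cells with 95% intervals, with clusters weighted alike, and for single clusters (small points). CIA against Cont lies at 0.86 pooled and 0.51 weighted in basal, bulge and outer root sheath cells, at 1.17 and -0.10 in cycling cells, and below 0 in both forms in upper follicle and suprabasal cells.

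Upper follicle, suprabasal and sebaceous keratinocytes had lower class I levels in CIA than in Cont. In upper follicle cells the class I log2 ratio of CIA against Cont was -0.41 (-0.48 to -0.33), and 0 of 16 members were at least 1.5-fold higher (15% of all genes) while 8 were lower (16.8%). The members' median log2 ratio was -0.56 and that of all genes -0.07. Of these cells 34 of 163 in CIA+VFX, 23 of 98 in CIA and 21 of 90 in Cont lay near the limit of the gate, and pan-immune markers summed to 33.9, 39.3 and 27 CPM in that order. H2-Q7 had 103 CPM in CIA+VFX, 84.7 CPM in CIA and 396 CPM in Cont, and H2-Q6, its near-identical neighbour, had 21.4, 23.8 and 168 CPM. Both were low in CIA+VFX and CIA alike and high in Cont, and their log2 ratios of CIA against Cont were -2.22 (-2.59 to -1.88) and -2.82 (-3.52 to -2.19). Nlrc5 had a ratio of -0.90 (-1.17 to -0.63), and H2-K1 of -0.69 (-0.85 to -0.53), which was 0.01 in cells without immune marker UMIs. H2-D1 and H2-T23 differed less, at ratios of -0.18 (-0.33 to -0.03) and -0.01 (-0.34 to 0.31). The other members past the fold were H2-Aa, H2-Ab1, H2-Eb1 and Cd74, all class II.

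Suprabasal cells, of which 130 were CIA+VFX, 69 CIA and 42 Cont, had a class I ratio of CIA against Cont of -0.59 (-0.68 to -0.50), with 0 of 11 members higher (11.5%) and 7 lower (23.3%). H2-K1 had 443 CPM in CIA+VFX, 397 CPM in CIA and 789 CPM in Cont, and H2-Q7 had 13.4, 24.6 and 122 CPM in that order. H2-D1 did not follow, with 446 CPM in CIA+VFX, 620 CPM in CIA and 635 CPM in Cont. Tap1 was lower at 27.9, 28.5 and 64.5 CPM, but its log2 ratio of CIA against Cont was 0.46 after thinning, against -1.18 as deposited. Sebocytes had a class I ratio of -0.28 (-0.35 to -0.21) in CIA against Cont, with 0 of 13 members higher (12.2%) and 8 lower (18.7%). Those 8 were B2m, Tapbp, H2-Q7, the class II genes H2-Aa, H2-Ab1, H2-Eb1 and Cd74, and Cd86, without H2-K1 or H2-D1. In Cont the top 3 of 63 sebocytes held 51.8% of the class II UMIs, and in CIA the top 3 of 112 held 32.8%. Sebocytes in Cont also held more pan-immune marker UMIs, at 22.8 CPM in CIA+VFX, 30.1 CPM in CIA and 89.3 CPM in Cont, and the part of these in the sebocyte values was not tested.

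In CIA+VFX against CIA the class I sum was lower in most keratinocyte types and by less than CIA stood above Cont in basal cells. Over all keratinocytes the log2 ratio was -0.34 (-0.36 to -0.33), and -0.19 with clusters weighted alike, with CIA+VFX above CIA in 1 of 17 clusters. In basal, bulge and outer root sheath cells it was -0.31 (-0.34 to -0.28), and -0.26 weighted, with CIA+VFX above CIA in 0 of 11 clusters. Members at least 1.5-fold lower in CIA+VFX were 2 of 21 in basal cells (4.45% of all genes) and members higher were 0 (2.46%), so the differences were mostly within 1.5-fold. The 2 were H2-Q5 and Cd86, each from fewer than 60 UMIs a library. In cycling cells 4 of 19 members were lower (4.92%) and 0 higher (3.28%), namely Nlrc5 at 29.3 CPM in CIA+VFX against 54.0 CPM in CIA, H2-T23 at 28.2 against 47.9 CPM, H2-Q7 at 24.5 against 38.2 CPM, and H2-Eb1. The ratio was 0.01 (-0.11 to 0.13) in the inner root sheath and -0.075 (-0.145 to -0.004) in the upper follicle, where it ran from -0.134 to 0.531 over the alternatives, the highest in cells without immune marker UMIs. The comparisons CIA+VFX against CIA and CIA against Cont share the CIA library, so a value peculiar to that library moves both in opposite directions.

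H2-D1 and H2-T23 stood out for how evenly they were lower in CIA+VFX than in CIA over cell types. H2-D1 was below its CIA value in 28 of 28 types, with a median log2 ratio of -0.36, and H2-T23 in 25 of 25 types, with a median of -0.44. Of 4368 genes measured in at least 20 types, 9 (0.206%) were lower in every type, and 2 of the 9 were these members. H2-T23 was at least 1.5-fold lower in 8 types, a count reached by 6 of the 4368 genes (0.137%), against a median of 5.17% of all genes past that fold per type. In fibroblasts H2-T23 had 139 CPM in CIA+VFX, 214 CPM in CIA and 161 CPM in Cont, with a log2 ratio of -0.62 (-0.71 to -0.53) for CIA+VFX against CIA. In monocytes it had 278 CPM in CIA+VFX, 421 CPM in CIA and 290 CPM in Cont, and in type 1 dendritic cells 202, 325 and 214 CPM. In these 3 types CIA was the high library and CIA+VFX was near or below Cont. H2-T22 was below in 19 of 20 types, H2-Q4 in 23 of 26 and B2m in 24 of 28, whereas Tapbp was above in 16 of 24. The types share their 2 libraries and are not independent. Under the alternatives H2-D1 was below in 25 to 28 of 27 to 28 types and H2-T23 in 20 to 25 of 24 to 25, but among non-immune cells without immune marker UMIs only in 11 of 15 and 7 of 12.

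In CIA against Cont, H2-T23 was higher in 22 of 23 types, with 7 past 1.5-fold (median background 13.5% a type), and 150 of 3986 genes (3.76%) were higher in all types or all but 1. H2-D1 was higher in 18 of 25 types. Among non-immune cells without immune marker UMIs, H2-T23 was higher in 8 of 11 types and H2-D1 in 9 of 13. H2-Q6 went the other way: it was lower in 13 of 16 types, at least 1.5-fold lower in 8 (median background 8.71% a type), and never 1.5-fold higher. H2-Q6 in macrophages had 12.2 CPM in CIA+VFX, 18.6 CPM in CIA and 43.7 CPM in Cont. In type 2 dendritic cells H2-Q6 had 22.6, 26.2 and 78.4 CPM, and in type 1 dendritic cells 25.8, 16.0 and 119 CPM, in that order of libraries. In alpha beta T cells it had 166 CPM in CIA+VFX, 184 CPM in CIA and 277 CPM in Cont. Vascular endothelial cells were an exception, at 117 CPM in CIA+VFX, 145 CPM in CIA and 123 CPM in Cont. In CIA+VFX against Cont, H2-Q6 was at least 1.5-fold lower in 9 of 16 types (median background 7.58%). H2-K1 was split in CIA against Cont, at least 1.5-fold higher in 6 and lower in 6 of 25 types (median backgrounds 13.5% and 9.93%).

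Class I levels in mesenchymal and vascular cells had no common direction. Pericytes and smooth muscle cells had the largest log2 ratio of the non-epithelial types compared, at a class I sum of 2571 CPM in CIA+VFX, 2566 CPM in CIA and 1093 CPM in Cont, a log2 ratio of 1.23 (1.08 to 1.39) for CIA against Cont. Cont held 41 such cells, against 259 in CIA+VFX and 198 in CIA, and the ratio was 1.26 within cluster 44 (Pln, Rergl), which held most of them. There 7 of 12 members were at least 1.5-fold higher (18.0% of all genes) and 0 lower (12.0%). B2m had 1345 CPM in CIA+VFX, 1417 CPM in CIA and 570 CPM in Cont. Fibroblasts had a class I ratio of -0.43 (-0.45 to -0.41), with 2 of 25 members higher (8.05%) and 9 lower (8.16%). The 9 took in H2-K1, H2-Q6, H2-Q7 and Nlrc5 beside Cd86 and the class II genes H2-Aa, H2-Ab1, H2-Eb1 and Cd74. With clusters weighted alike the class I ratio was -0.13, with CIA above Cont in 4 of 7 clusters. In cluster 24, with 15.5% of CIA and 42.9% of Cont fibroblasts, it was -0.35. H2-K1 in fibroblasts had 357 CPM in CIA+VFX, 380 CPM in CIA and 586 CPM in Cont. In melanocytes 4 of 8 members were higher (12.4%) and 2 lower (14.5%), the class II genes H2-Ab1 and Cd74. Melanocytes had a class I ratio of 0.65 (0.51 to 0.79), which was -0.02 in cells without immune marker UMIs. Vascular endothelial cells had 0.165 (0.138 to 0.191), lymphatic endothelial cells -0.28 (-0.33 to -0.23), and macrophages -0.12 (-0.14 to -0.10).

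The dermal papilla, which signals to the matrix, had a class I log2 ratio of -0.04 (-0.08 to -0.01) in CIA against Cont and had 5 of 20 members at least 1.5-fold higher (11.1% of all genes) and 0 lower (6.12%). Among these were H2-Q4, at 42.5 CPM in CIA+VFX, 71.7 CPM in CIA and 41.9 CPM in Cont, and Nlrc5, at 23.6, 31.7 and 19.9 CPM, whose ratio was -0.02 in cells without immune marker UMIs. The interferon gamma list had 6 of 15 measured genes higher in the dermal papilla of CIA (11.1% of all genes) and 0 lower (6.12%), with a list median of 0.38 against 0.11 for all genes. Of 14 dissociation and immediate early genes 5 were higher there as well and 0 lower, beside the same shares of all genes, and their part in these differences was not tested. Cd274, a checkpoint ligand known as PD-L1, had 11.7 CPM in CIA against 3.13 CPM in Cont, and Cxcl10 had 6.61 against 1.44 CPM.

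Class II transcripts were concentrated in dendritic cells, monocytes and macrophages. Type 2 dendritic cells had a class II sum of 50677 CPM in CIA+VFX, 58647 CPM in CIA and 50402 CPM in Cont. Type 1 dendritic cells had 43518 CPM in CIA+VFX, 49753 CPM in CIA and 47271 CPM in Cont, and mature dendritic cells 29456, 38468 and 24595 CPM. Monocytes had 16839 CPM in CIA+VFX, 23131 CPM in CIA and 25932 CPM in Cont, and macrophages 15600, 16545 and 19132 CPM. In each of the 3 dendritic types CIA was the highest library. Langerhans cells, the class II cells of the epidermis, numbered 14 in CIA+VFX, 13 in CIA and 2 in Cont and were not compared.

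In type 2 dendritic cells the class II log2 ratio was 0.22 (0.21 to 0.23) for CIA against Cont and -0.21 (-0.22 to -0.20) for CIA+VFX against CIA. The first of these was smaller within cluster 25 (Mmp12, Cd209a), where CIA stood above Cont by a log2 ratio of 0.06. In that cluster CIA+VFX still stood below CIA, at -0.21. Cluster 30 (Slc39a12, Lyz1, Dcstamp, Ear2) had 40786 CPM in Cont. It held 4.75% of CIA+VFX, 7.01% of CIA and 38.6% of Cont cells of this type. With cells typed by their cluster, CIA stood above Cont by 0.31. The part of the cell mix in the class II difference was not tested. Past 1.5-fold were 3 of 28 members upward (16.2% of all genes) and 5 downward (10.7%) in CIA against Cont, and 0 of 26 upward (4.31%) and 0 downward (3.20%) in CIA+VFX against CIA. Ciita was among those higher, at 86.0 CPM in CIA+VFX, 73.8 CPM in CIA and 39.2 CPM in Cont, with a ratio of 0.91 (0.66 to 1.16) for CIA against Cont. H2-M3, which presents formylated bacterial peptides, stood at 30.8, 32.8 and 20.6 CPM in that order of libraries, and H2-M2 was the remaining one. Lower were Nlrc5, H2-K2, H2-Q6, H2-Q7 and H2-DMb2, the last at 105 CPM in CIA+VFX, 94.2 CPM in CIA and 150 CPM in Cont. H2-DMb1, its near copy, went the other way, at 766, 792 and 559 CPM. The values of these single members were pooled over clusters, and the part of the cell mix in them was not tested.

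Mature dendritic cells, which carry peptides to lymph nodes, had the widest class II difference of the 3 dendritic types, at a log2 ratio of 0.65 (0.61 to 0.68) for CIA against Cont from 53 CIA+VFX, 47 CIA and 41 Cont cells. Within cluster 50 (Apol7c, Il12b, Ccl22), which held 52, 34 and 30 of them, the class II sum was 29108 CPM in CIA+VFX, 33453 CPM in CIA and 13966 CPM in Cont. Members were at least 1.5-fold higher in 8 of 22 cases (18.4% of all genes) and lower in 5 (18.6%). Ciita had 117 CPM in CIA+VFX, 246 CPM in CIA and 11.1 CPM in Cont from 63, 98 and 4 UMIs, and after thinning a Ciita UMI was found in 10 of 53, 11 of 46 and 1 of 37 cells. H2-DMa, whose product with the DM beta chain exchanges class II peptides, had 190 CPM in CIA+VFX, 264 CPM in CIA and 63.8 CPM in Cont. H2-DMb2 had 216 CPM in CIA+VFX, 266 CPM in CIA and 36.0 CPM in Cont, the last from 13 UMIs. The Cont library was the low one for Ciita and for each of the DM genes. H2-Aa, H2-Ab1 and H2-Eb1 had ratios of 0.73 (0.65 to 0.82), 0.83 (0.72 to 0.93) and 0.77 (0.68 to 0.87), and Cd74, the invariant chain, 0.53 (0.47 to 0.58). Class I genes went the other way, with H2-K1 at 1197 CPM in CIA+VFX, 841 CPM in CIA and 1661 CPM in Cont. In CIA+VFX against CIA, 2 of 24 members were lower (9.52%) and 0 higher (9.66%): Ciita and H2-DMb1.

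Macrophages had 1 of 27 members at least 1.5-fold higher (16.3% of all genes) and 3 lower (7.67%) in CIA against Cont. Their class II ratio of -0.21 (-0.22 to -0.20) joined unlike clusters. In cluster 9 (Cd209f, Folr2, Fcna), with 64.4% of CIA+VFX, 65.2% of CIA and 69.0% of Cont macrophages, the class II sum was 3457 CPM in CIA+VFX, 2941 CPM in CIA and 9986 CPM in Cont. In cluster 1 it was 39299, 39033 and 42928 CPM. In the smaller cluster 23 (Slc28a2, Aoah) it was 1833 CPM in CIA+VFX, 680 CPM in CIA and 4294 CPM in Cont. Cluster 30, at 39039 CPM in Cont, held 1.86% of CIA+VFX, 2.44% of CIA and 13.2% of Cont macrophages, too few in CIA+VFX and CIA for a value. CIA+VFX and CIA were both below Cont in clusters 9, 23 and 1, by the smallest fold in cluster 1. Ciita was level over all macrophages, at 19.5 CPM in CIA+VFX, 20.3 CPM in CIA and 20.3 CPM in Cont.

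In cells that are not immune, class II UMIs were few, and they are given here beside immune marker UMIs, which did not always differ the same way between libraries. Over 17 non-immune types in CIA+VFX and CIA and 16 in Cont, the class II sum had a median of 80.7 CPM in CIA+VFX, 98.3 CPM in CIA and 167 CPM in Cont. Divided by UMIs of 8 pan-immune markers the median was 2.65, 2.90 and 4.41, against 2.80, 3.41 and 3.70 for the whole libraries. In upper follicle cells the class II sum was 106 CPM in CIA+VFX, 120 CPM in CIA and 252 CPM in Cont, while the pan-immune markers, given above, were lowest in Cont. The top 3 upper follicle cells held 28.1% of these class II UMIs in CIA+VFX, 15.5% in CIA and 30.6% in Cont. In Cont 1 of the 90 cells held 61 of them. In basal, bulge and outer root sheath cells Cd74 had 30.02 CPM in CIA+VFX, 38.1 CPM in CIA and 71.2 CPM in Cont, and Ciita had 6, 5 and 6 UMIs in all. The class II genes were the members that were lower in CIA there, and the ratio of H2-Aa was 0.06 after scaled subtraction of free RNA, against -0.77 as deposited. Class II made by keratinocytes and class II free RNA cannot be told apart in these values. Some high values came from few cells: 1 of 30 CIA+VFX Schwann cells had at least 100 class II UMIs and the top 3 cells held 94.8% of them, and in CIA+VFX basophils the top 3 of 114 cells held 91.1%.

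**Figure D4:**
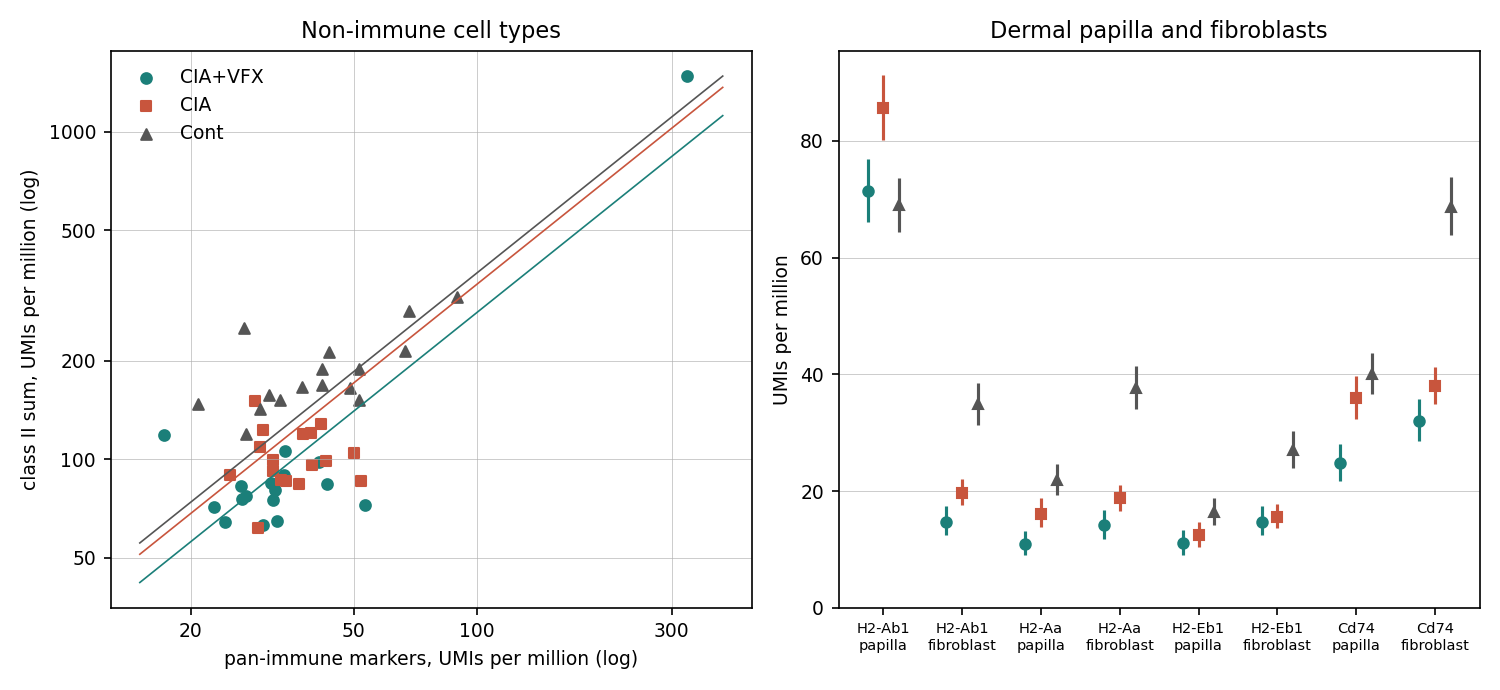
Left, class II sum against pan-immune marker sum in CPM (log axes) for non-immune types, with lines at the ratio of each whole library. Right, H2-Ab1, H2-Aa, H2-Eb1 and Cd74 in dermal papilla cells and fibroblasts, in CPM for each library with 95% intervals; H2-Ab1 in the dermal papilla, at 69.0 to 85.6 CPM, stands above its fibroblast values of 14.8 to 34.8 CPM in each library, while H2-Aa does not.

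The dermal papilla differed from this background for single class II genes. H2-Ab1, the class II beta chain, had 71.4 CPM in CIA+VFX, 85.6 CPM in CIA and 69.0 CPM in Cont from 697, 906 and 860 UMIs, against 14.8, 19.7 and 34.8 CPM in fibroblasts. H2-Aa, its alpha chain partner, had 11 CPM in CIA+VFX, 16.2 CPM in CIA and 21.9 CPM in Cont papilla cells, against 14.1, 18.8 and 37.6 CPM in fibroblasts. The beta chain was therefore high in the papilla without the alpha chain. There were 6.51 H2-Ab1 UMIs per H2-Aa UMI in CIA+VFX, 5.30 in CIA and 3.15 in Cont papilla cells, against 1.04, 1.05 and 0.926 in fibroblasts and 0.985, 1.03 and 0.951 in type 2 dendritic cells. Most of these H2-Ab1 UMIs lay in papilla cluster 5 (Rspo4, Rspo3), where an H2-Ab1 UMI was found in 42.8% of CIA+VFX, 39.9% of CIA and 60.5% of Cont cells and pan-immune markers summed to 15.1, 29.6 and 19.9 CPM. Cluster 54 (Ghrh, Saa2, Saa1), with 83 CIA papilla cells, held 69 H2-Ab1 against 19 H2-Aa UMIs, with an H2-Ab1 UMI in 42.2% of cells and pan-immune markers at 19.3 CPM. Cluster 46 also held H2-Ab1, from 25, 4 and 7 UMIs, with pan-immune markers at 177, 185 and 136 CPM. After thinning over all papilla cells the H2-Ab1 share was 8.66%, 11.9% and 11.8%, against 2.70%, 3.60% and 7.24% in fibroblasts. Unthinned it was 32.9%, 33.5% and 50.5% in papilla cells and 8.91%, 12.2% and 25% in fibroblasts.

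H2-DMb1 showed a like pattern in the papilla and dermal sheath. It had 22.3 CPM in CIA+VFX, 21.6 CPM in CIA and 20.8 CPM in Cont papilla cells and 28.0, 22.9 and 37.2 CPM in dermal sheath cells, against 3.95, 4.37 and 5.38 CPM in fibroblasts. Per H2-DMa UMI there were 3.96, 3.95 and 3.47 H2-DMb1 UMIs in the papilla, against 0.997, 1.0 and 0.764 in type 2 dendritic cells. Its papilla level was the same in the 3 libraries within counting error, with log2 ratios of 0.05 (-0.21 to 0.31) for CIA against Cont and 0.05 (-0.23 to 0.32) for CIA+VFX against CIA. The counting's use of strand is not given in the sources used here, so reads of overlapping genes cannot be told apart from these.

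Several members were high in 1 or a few types. H2-M9 was highest in pericytes, at 77.4 CPM in CIA+VFX, 107 CPM in CIA and 71.6 CPM in Cont. In vascular endothelial cells H2-M9 had 17.5 CPM in CIA+VFX, 4.75 CPM in CIA and 7.69 CPM in Cont, a log2 ratio of 1.88 (1.38 to 2.41) for CIA+VFX against CIA, 1 of 25 members past the fold upward there (5.75% of all genes), with 3 downward (3.85%). H2-Q10, whose promoter window stands above, was highest in neutrophils, at 416 CPM in CIA+VFX, 334 CPM in CIA and 494 CPM in Cont, the last from 24 cells. H2-Eb2 was highest in mature dendritic cells, and H2-M2 was high there too, except that the 14 Langerhans cells of CIA+VFX exceeded them. H2-M2 stood at 223, 241 and 613 CPM in mature dendritic cells and H2-Eb2 at 114, 138 and 155 CPM. H2-Ob, a brake on DM, was highest in type 1 dendritic cells, at 123 CPM in CIA+VFX, 98.1 CPM in CIA and 171 CPM in Cont. Natural killer cells held the highest H2-Q7 levels, at 872 CPM in CIA+VFX, 971 CPM in CIA and 1012 CPM in Cont, and the highest H2-Q6 levels, at 422, 453 and 504 CPM. H2-Oa had 51.7 CPM in CIA+VFX and 79.9 CPM in CIA basophils, and Cont had 12 basophils with 0 UMIs of it.

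**Figure D5:**
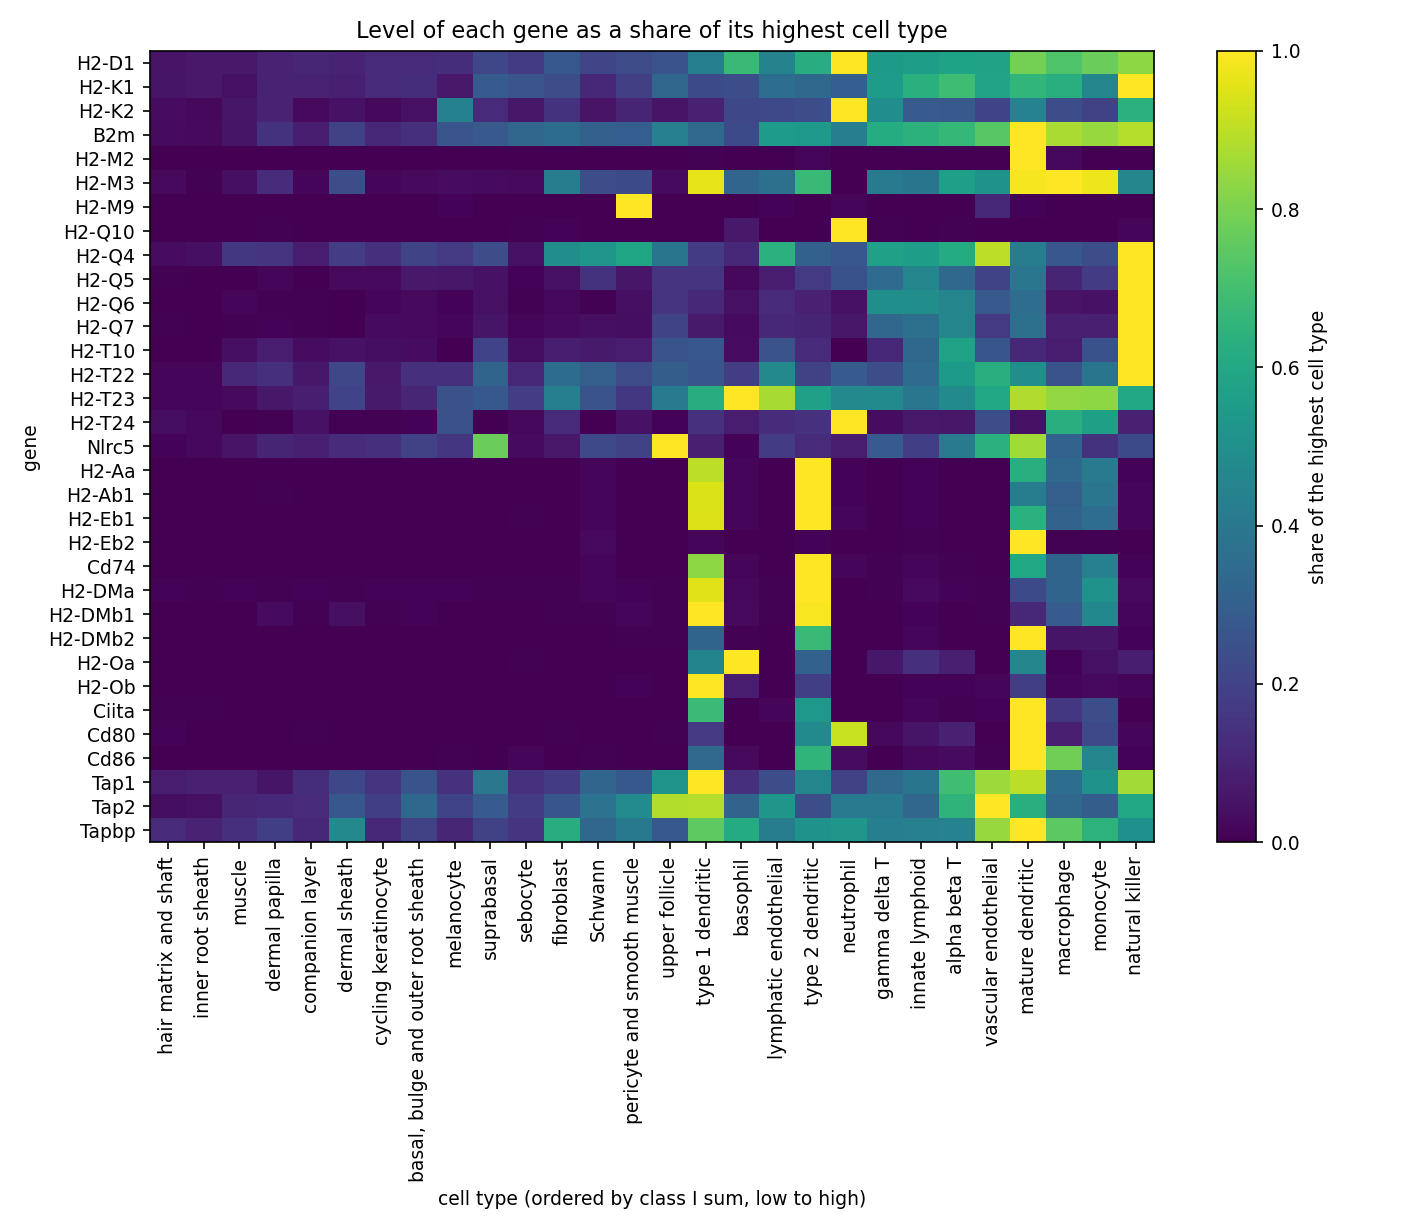
Level of the 33 measured members (rows) in each cell type (columns), as a share of the member's own highest type, mean of the libraries. Class I rows fill most columns, class II rows are filled in the dendritic, macrophage and monocyte columns, and rows such as H2-M9, H2-Q10 and H2-Ob have 1 bright column.

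Cd80 and Cd86, which bind CD28 on T cells, were high in mature dendritic cells, although in Cont macrophages had more Cd86 and neutrophils more Cd80. Cd86 had 1055 CPM in CIA+VFX, 989 CPM in CIA and 579 CPM in Cont there, a log2 ratio of 0.77 (0.53 to 1.02) for CIA against Cont. Cd80 had 863, 836 and 721 CPM in mature dendritic cells, with a ratio of 0.21 (-0.02 to 0.45). In type 1 dendritic cells both were lower in CIA, Cd80 at 106 CPM in CIA+VFX, 73.0 CPM in CIA and 223 CPM in Cont, and Cd86 at 271, 226 and 405 CPM. There 2 of 25 members were at least 1.5-fold higher (17.8% of all genes) and 6 lower (16.3%). Neutrophils also held Cd80, at 806 CPM in CIA+VFX, 672 CPM in CIA and 841 CPM in Cont.

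Some of the pathway's other genes were also higher in basal, bulge and outer root sheath cells of CIA. Of 11 measured genes of class I peptide supply, 4 were at least 1.5-fold higher in CIA than in Cont (14.8% of all genes) and 0 lower (3.68%), with a median log2 ratio of 0.42 against 0.16 for all genes. Psmb8 and Psmb9, subunits of the immunoproteasome that cuts peptides for class I, had 21 and 17 CPM in CIA against 7.78 and 7.02 CPM in Cont. Of 15 interferon gamma genes 5 were higher and 0 lower, beside the same shares of all genes, with Irf1, a transcription factor induced by interferon, at 81.9 CPM in CIA against 35.3 CPM in Cont and the chemokine Cxcl10 at 57.0 against 28.2 CPM. H60c, a ligand of the natural killer receptor NKG2D, had 12.8 CPM in CIA against 5.70 CPM in Cont, and the death receptor Fas 35.0 against 18.6 CPM. In CIA+VFX against CIA, 2 of the 11 peptide supply genes were lower (4.45% of all genes), Psmb8 at 13.3 against 21 CPM and Psmb9 at 10.9 against 17.0 CPM, and 0 higher (2.46%). In upper follicle cells 3 of 9 peptide supply genes were lower in CIA than in Cont (16.8% of all genes) and 0 higher (15%). There 8 of 14 dissociation and immediate early genes were lower too, beside that same 16.8%, such as Hspa1a at 418 CPM in CIA against 1306 CPM in Cont, and their part in the class I difference was not tested.

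In type 2 dendritic cells the interferon gamma list was divided, with 4 of 16 genes at least 1.5-fold higher in CIA than in Cont (16.2% of all genes) and 6 lower (10.7%). Cxcl9 had 3.16 CPM in CIA against 21.7 CPM in Cont and Gbp2 5.83 against 29.8 CPM, while Irf8 had 34.5 against 14.2 CPM. Ifi30, the thiol reductase of class II peptide supply, had 1489 CPM in CIA against 666 CPM in Cont. These values were pooled over clusters, and cluster 30 held 7.01% of CIA and 38.6% of Cont type 2 dendritic cells. The part of that mix in these gene differences was not tested. In fibroblasts 7 of 18 interferon gamma genes were lower (8.16% of all genes) and 0 higher (8.05%), with a median of -0.52 against 0.03 for all genes.

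The 14 members measured in no type were mostly silent. H2-M10.1, H2-M10.2, H2-M10.4, H2-M10.5 and H2-M10.6, of a family known from the vomeronasal organ, had 0 UMIs in all cells. H2-Ea had 10 UMIs, in a strain whose haplotype is known to lack the class II E alpha chain. The others were H2-Q1 with 12, H2-Q2 with 74, H2-Bl with 45, H2-T3 with 12, H2-M10.3 with 1, H2-M11 with 16, H2-M1 with 3 and H2-M5 with 78 UMIs.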

How the data were processed

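Raw UMI counts per gene and barcode, as deposited, were made by the authors with Cell Ranger 8.0.1 on GRCm39, per the file headers and the submitters' processing notes. Strand use in counting is not given in the sources used here. Barcodes passed with 500 or more detected genes and no more than 15% of UMIs from mitochondria, and the cells most like simulated doublets were removed at 0.4% per 1000 barcodes (1263 in CIA+VFX, 1172 in CIA and 734 in Cont). Each cell was typed by its own markers, and clusters were made without the members. Counts were summed per library and type and divided by the type's total. Log2 ratios carry exact 95% intervals for counting error only. With 1 library a group no test was possible, and a gene was called at 1.5-fold with at least 50 UMIs over both libraries. The members, the marker lists and the pathway lists were chosen with earlier results of these data known. Members were named where measured and highest, lowest or 1.5-fold apart, and list genes where they were among the 3 furthest above or below. Python 3.11.15, numpy 2.4.6, scipy 1.17.1, pandas 2.3.3, scikit-learn 1.9.0, python-igraph 0.11.9 and matplotlib 3.10.9 were used, with edgeR 4.0.16 in R 4.3.3 for TMM factors alone. The ratios were also run on simulated counts with Poisson error alone. That run held no variation between cells, mice or libraries and cannot speak to it. Alternatives changed the scaling, cell filter, doublet removal, gate, depth, free RNA, UMI minimum and cell weighting, and weighting clusters alike and the scaled free RNA subtraction were chosen after seeing the data.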

Additional observations from a re-analysis of the deposited data

Results flagged for a closer look

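The class I sum of CIA against Cont had opposite directions in different cell types of the same libraries. Its log2 ratio was 0.86 in basal, bulge and outer root sheath keratinocytes and 1.23 in pericytes and smooth muscle cells. It was -0.41 in upper follicle cells, -0.59 in suprabasal cells and -0.43 in fibroblasts. With clusters weighted alike the fibroblast ratio was -0.13, with CIA above Cont in 4 of 7 clusters. The class II sum likewise had a ratio of 0.65 in mature dendritic cells and -0.21 in macrophages. With 1 library a group, the difference between types was not tested.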

How the results depend on the processing

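Of 1378 alternative values of 129 log2 ratios, 1331 kept their direction and 47 did not. All ratios here are log2, of CIA against Cont unless said otherwise, and the cause of each move was not tested. The class I ratio over all keratinocytes (0.89) was 0.96 after subtraction of 5% free RNA and 0.96 after scaled subtraction, 0.83 with TMM and 0.83 with median-of-ratios scaling, 0.60 after thinning, 0.59 as a mean over cells, 0.84 without doublet removal, 0.47 in cells without immune UMIs and 0.18 with clusters weighted alike. For CIA+VFX against CIA (-0.34) it was -0.31 with TMM, -0.31 with median-of-ratios scaling, -0.22 after thinning, -0.22 as a mean over cells, -0.32 in cells without immune UMIs and -0.19 with clusters weighted alike. For CIA+VFX against Cont (0.55) these were 0.64 after 5% and 0.60 after scaled subtraction, 0.52 with TMM, 0.52 with median-of-ratios scaling, 0.38 after thinning, 0.37 as a mean over cells, 0.48 without doublet removal, 0.15 in cells without immune UMIs and -0.041 with clusters weighted alike. The class I ratio of basal, bulge and outer root sheath cells (0.86) was 0.92 after 5% and 0.92 after scaled subtraction, 0.70 with TMM, 0.69 with median-of-ratios scaling, 0.76 with cells typed by cluster, 0.57 after thinning, 0.57 as a mean over cells, 0.79 without doublet removal, 0.44 in cells without immune UMIs and 0.51 with clusters weighted alike. In cycling cells (1.17) it was 1.30 after 5% and 1.26 after scaled subtraction, 1.13 with TMM, 0.39 with cells typed by cluster, 1.04 after thinning, 1.07 as a mean over cells, 1.13 without doublet removal and -0.10 with clusters weighted alike. In upper follicle cells (-0.41) it was -0.57 after thinning, -0.57 as a mean over cells, -0.61 in cells without immune UMIs and -0.32 with clusters weighted alike. The class II ratio of type 2 dendritic cells (0.22) was 0.15 with TMM, 0.10 with median-of-ratios scaling, 0.31 with cells typed by cluster and 0.20 after scaled subtraction. For CIA+VFX against CIA (-0.21) it was -0.26 with TMM, -0.25 with median-of-ratios scaling, -0.23 with cells typed by cluster, -0.23 after thinning, -0.25 as a mean over cells and -0.20 after scaled subtraction. Members at least 1.5-fold higher in basal cells (10) were 5 after thinning and 4 in cells without immune UMIs, and in type 2 dendritic cells (3) they were 5 with cells typed by cluster, 1 after thinning and 1 with a stricter gate. Members lower in basal cells (3) were 1 after 5% and 0 after scaled subtraction, 5 with cells typed by cluster, 5 after thinning, 5 as a mean over cells and 1 without doublet removal. Members lower in upper follicle cells (8) were 4 after 5% and 4 after scaled subtraction, 2 after thinning, 3 with at least 200 UMIs, 4 without doublet removal and 3 in cells without immune UMIs. Of the 47 values in the other direction, 10 were of ratios past 1.5-fold; beside the cycling class I sum above these were H2-Aa in basal cells at 0.061 after scaled subtraction, H2-T23 in cycling cells at -0.028 with cells typed by cluster, Tap1 in suprabasal cells at 0.46 after thinning, and the companion layer class I sum at -0.63 with clusters weighted alike. In cells without immune UMIs they were H2-K1 in upper follicle cells at 0.011, H2-Q7 and Nlrc5 in basal cells at -0.12 and -0.15, Nlrc5 in the dermal papilla at -0.023, and the melanocyte class I sum at -0.022. Of the smaller ratios, class I in cells without immune UMIs was 0.99 in matrix and shaft cells, and for CIA+VFX against CIA 1.32 in sebocytes and 0.53 in the upper follicle. No paired analysis was possible because each group was 1 library. Depth limits low members: with 1 library of pooled mice a group, intervals cover counting error only.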
